A study of Mus musculus with 29 samples.

Results

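The mRNA of 10 tight junction genes was followed in mouse distal colon: the claudins Cldn1, Cldn2, Cldn3, Cldn4, Cldn7, Cldn8, Cldn15 and Cldn23, together with Ocln and Tjp1. A gene was taken from the probe sets that the platform annotation gives to that gene alone, and where several such probe sets existed the brightest on average would have been used. Each of the 10 genes had exactly 1 such probe set, out of 23521 single-gene probe sets for 22180 genes among the 41345 probe sets of the array. The study asked how loss of cytoglobin (Cygb), a heme protein of the globin family, affects colitis and the tumours that follow it. Each of 29 mice gave total RNA of its distal colon for 1 array (Affymetrix Mouse Gene 2.0 ST).

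All mice are labelled female, strain C57BL/6 and adult (18 to 24 weeks). Wild type (WT) mice gave 8 untreated arrays and 8 arrays after AOM/DSS. Cygb-/- mice (also called KO here) gave 8 untreated arrays and 5 arrays after AOM/DSS. Treated mice received the colon carcinogen azoxymethane (AOM, 7.4 mg/kg, by injection into the peritoneal cavity) and then 3% dextran sulfate sodium (DSS), a polymer that injures the colonic epithelium, over 7 days. The labels give 1 DSS cycle and killing in week 5, whereas the study's methods describe a further DSS cycle and a later week for the arrayed animals, so the interval between DSS and tissue collection is not settled. The Cygb-/- allele is a germline deletion of the heme-binding exon, made in embryonic stem cells and crossed to C57BL/6J. WT and KO mice came from separate lines founded by offspring of the same heterozygous breeders, so genotype and line cannot be told apart.

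Tight junctions are the strands that join neighbouring epithelial cells at their apical border and decide which ions, water and macromolecules pass between them. Claudins are small proteins with 4 membrane-spanning segments that form these strands. Some of them, such as Cldn2 and Cldn15, form channels for small cations, and others, such as Cldn1, Cldn3, Cldn4 and Cldn8, tighten the seal. Occludin (Ocln) is another membrane protein of the strands, and ZO-1, the product of Tjp1, is the cytoplasmic scaffold that ties claudins and occludin to actin.

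RefSeq promoter windows (GRCm38.p6) were found for 8 of the 10 genes. Those of 4 genes are shown: Cldn1, Cldn4 and Cldn15 because they had the largest fold changes of the 10 genes in both genotypes, and Ocln because it was, with Cldn15, without overlap between treated and untreated arrays in both. Cldn1 and Cldn4 were higher after AOM/DSS, and Cldn15 and Ocln were lower. Each line holds the 250 bases before an annotated start site, the upstream of 2 for Ocln, 5' to 3' on the gene's strand. Capitals mark matches, on either strand, to any of 8 motifs: AP-1 (TGANTCA), CDX (TTTATNG), GRHL (AACCNGTT), HNF4A (CAAAGTCCA), the E-box of SNAI and ZEB factors (CAGGTG), the GC box (GGGCGG), STAT (TTCNNNGAA) and the TATA box (TATAAA).
Cldn1 (chr16:26371840-26372089, minus strand): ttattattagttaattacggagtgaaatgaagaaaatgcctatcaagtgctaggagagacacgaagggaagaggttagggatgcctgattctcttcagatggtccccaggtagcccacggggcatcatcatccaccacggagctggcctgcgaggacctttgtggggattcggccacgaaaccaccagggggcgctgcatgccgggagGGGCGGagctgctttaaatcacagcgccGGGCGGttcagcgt
Cldn4 (chr5:134946935-134947184, minus strand): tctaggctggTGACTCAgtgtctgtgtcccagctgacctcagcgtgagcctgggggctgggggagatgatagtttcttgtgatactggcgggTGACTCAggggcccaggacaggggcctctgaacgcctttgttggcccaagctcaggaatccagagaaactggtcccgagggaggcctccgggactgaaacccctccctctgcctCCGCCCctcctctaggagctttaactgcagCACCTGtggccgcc
Cldn15 (chr5:136967619-136967868, plus strand): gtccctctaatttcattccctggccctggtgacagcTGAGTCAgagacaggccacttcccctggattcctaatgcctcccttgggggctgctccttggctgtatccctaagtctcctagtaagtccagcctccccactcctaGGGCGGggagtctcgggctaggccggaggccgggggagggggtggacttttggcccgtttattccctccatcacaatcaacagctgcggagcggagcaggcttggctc
Ocln (chr13:100552719-100552968, minus strand): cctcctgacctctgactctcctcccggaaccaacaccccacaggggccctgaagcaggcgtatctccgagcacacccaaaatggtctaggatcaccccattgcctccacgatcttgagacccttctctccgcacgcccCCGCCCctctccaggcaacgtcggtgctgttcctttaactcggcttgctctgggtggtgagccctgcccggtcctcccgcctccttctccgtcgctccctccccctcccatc
The Cldn4 window held 2 AP-1 matches, both read as TGACTCA, whose first bases lie 240 and 158 bases before the start, and the Cldn15 window held 1, TGAGTCA, 214 bases before it. AP-1 letters occurred in 6.75% of the 32851 windows of the same length, and in none of the windows of the other 6 genes. GC boxes were present in all 4 sequences shown, against 32.7% of windows. Neither CDX nor HNF4A nor GRHL letters were found in these 4 windows. The AP-1 letters were thus shared by a gene that was higher after AOM/DSS, Cldn4, and by one that was lower, Cldn15. Cldn3 and Cldn4 are neighbours on chromosome 5 with no protein-coding gene between them (0 in the RefSeq annotation), and they too moved in opposite directions.

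The targeted gene followed its labels: Cygb had a mean log2 signal of 8.78 ± 0.15 (SD, n = 8) in untreated WT and 9.03 ± 0.29 (SD, n = 8) in treated WT colons. In Cygb-/- colons it was 6.12 ± 0.17 (SD, n = 8) and 6.30 ± 0.19 (SD, n = 5), with the highest KO array at 6.48 and the lowest WT array at 8.41. Array medians lay between 4.76 and 4.88 on the log2 scale. Distal colon Hox genes were present, and the epithelial markers Epcam and Cdh17 were bright in each group (Epcam means of 10.93 to 10.98). The mean log2 signal of 6 distal colon Hox genes differed with treatment. It was 7.07 in untreated and 7.63 in treated WT colons, and 6.94 and 7.51 in KO colons. 1 treated KO array, replicate 3, had an Xist signal of 3.82 against 10.64 to 11.15 in the other 28 arrays, which goes against its label as female. Without that array the 7 calls made in treated against untreated KO colons stayed the same 7 genes, and no gene was called in either comparison between genotypes.

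After AOM/DSS, Cldn1 and Cldn4 were higher and Cldn15, Cldn23, Ocln and Cldn3 were lower in the colons of both genotypes. In WT colons 2 of the 10 genes were higher and 6 were lower by limma (adjusted p under 0.05, after Benjamini and Hochberg, across the whole array), where 26.7% of all probe sets were called. In Cygb-/- colons 3 were higher and 4 lower, against 26.1% of all probe sets. Between directions, 12.5% of all probe sets were called higher and 14.3% lower in WT, and 12.6% and 13.5% in KO. The treated and untreated groups did not overlap for 2 of the 10 genes in WT, against 8.50% of all probe sets, and for 6 of 10 in KO, against 15.0%. The median log2 fold change of the 10 genes was -0.38 in WT and -0.06 in KO, beside -0.04 over all probe sets in each genotype. These are bulk colon samples, in which fewer epithelial cells of a type and less RNA per cell cannot be told apart.

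**Figure D1:**
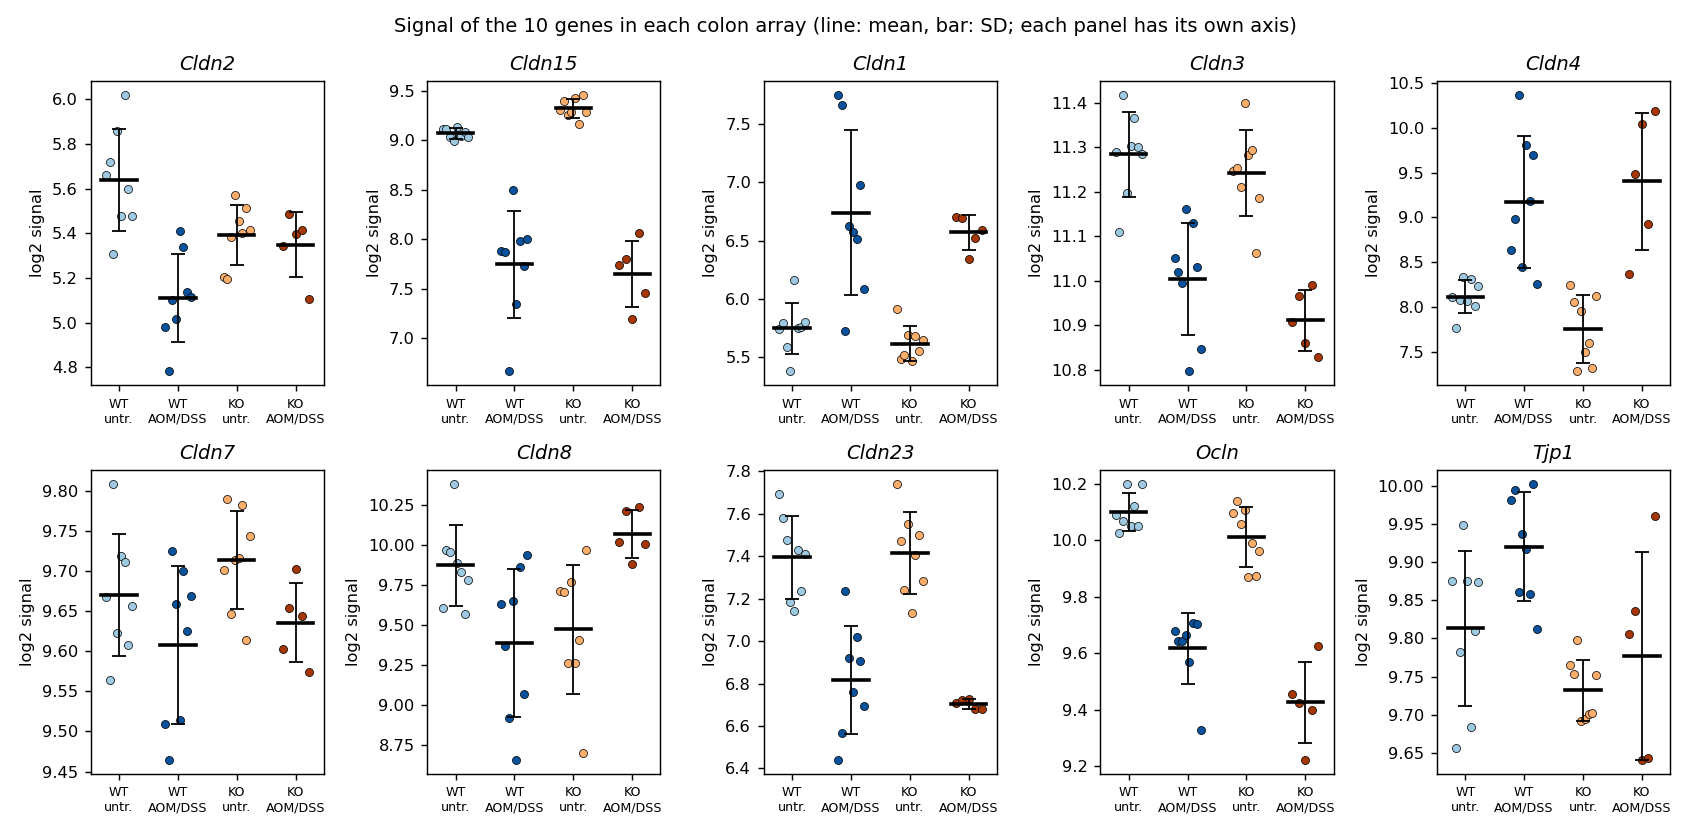
Log2 signal of each of the 10 genes in every array, by group (WT untreated, WT AOM/DSS, KO untreated, KO AOM/DSS). Points are arrays, the horizontal line is the group mean and the bar its SD. Cldn15 and Ocln separate treated from untreated arrays in both genotypes, and Cldn8 is high in the 5 treated KO arrays (9.88 to 10.24).

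Among the channel-forming claudins, Cldn15 had the largest fall of the 10 genes. Cldn15 forms sodium-permeable channels in the gut lining. In untreated WT colons its log2 signal was tightly held, with a lowest value of 8.99, a median of 9.07 and a highest of 9.14. In treated WT colons the lowest was 6.67, the median 7.88 and the highest 8.50. No treated array reached an untreated one, and the signal was 2.50-fold lower (log2 fold change -1.32 ± 0.18 SE, limma adjusted p = 2.93e-05). Treatment also widened the spread, from an SD of 0.05 to 0.54.

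In Cygb-/- colons, untreated Cldn15 ranged from 9.16 to 9.46 with a median of 9.30. The 5 treated KO arrays read 7.74, 7.81, 7.19, 8.06 and 7.46. All 5 lay below every untreated KO array, and the signal was 3.18-fold lower (log2 fold change -1.67 ± 0.12 SE, limma adjusted p = 3e-07). The fall did not differ between genotypes past the threshold (difference of log2 fold changes -0.35, 95% interval -0.83 to 0.13, limma adjusted p = 0.766).

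Cldn15 was also the only gene of the 10 whose untreated KO and WT arrays did not overlap, a separation seen in 0.109% of all probe sets. All 8 untreated KO arrays (9.16 or more) lay above all 8 untreated WT arrays (9.14 or less). The difference was small, 1.19-fold (log2 fold change 0.25 ± 0.05 SE), and its adjusted p of 0.116 by limma missed the threshold. With a variance trend in the same model the adjusted p was 0.0336. After AOM/DSS the treated KO and WT arrays overlapped throughout, with a log2 difference of -0.10 (95% interval -0.62 to 0.43).

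Cldn2, the cation and water channel of leaky epithelia, had a dim probe set in these colons: its group medians lay at the 54.1 to 61.8 percentile of all probe sets. In WT colons it went from a median of 5.63 (5.31 to 6.02) untreated to 5.11 (4.78 to 5.41) after AOM/DSS. All 8 treated arrays were below the untreated median, 6 of them below every untreated array, and the signal was 1.44-fold lower (log2 fold change -0.53 ± 0.10 SE, limma adjusted p = 0.00106). In Cygb-/- colons no such fall was seen. Untreated KO arrays ranged from 5.19 to 5.57, and the 5 treated arrays read 5.34, 5.49, 5.39, 5.41 and 5.10 (log2 fold change -0.04, 95% interval -0.22 to 0.13, adjusted p = 0.757). The difference of the responses was 0.48 ± 0.14 SE on the log2 scale, with a limma adjusted p of 0.226, so a genotype-dependent response was not called.

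Of the sealing claudins, Cldn4 and Cldn1 rose. Cldn4 is a barrier claudin of many tight epithelia. Untreated WT arrays spanned 7.76 to 8.33 with a median of 8.09, and treated WT arrays 8.26 to 10.37 with a median of 9.08. 7 of 8 treated arrays exceeded every untreated one, and the signal was 2.09-fold higher (log2 fold change 1.06 ± 0.25 SE, limma adjusted p = 0.00389). In Cygb-/- colons the untreated arrays spanned 7.28 to 8.24 and the treated arrays read 8.37, 9.49, 10.05, 8.93 and 10.19. These groups did not overlap, and Cldn4 was 3.13-fold higher (log2 fold change 1.65 ± 0.28 SE, limma adjusted p = 0.000541). With the mean of squamous epithelium markers as a covariate, Cldn4 remained called in WT (log2 fold change 1.04, adjusted p = 0.0310) and was not called in KO (1.11, adjusted p = 0.275). The response was not called different between genotypes (difference 0.59, 95% interval -0.22 to 1.39, adjusted p = 0.763).

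Of the 10 genes, Cldn4 had the largest SD among treated arrays, 0.74 in WT and 0.76 in KO. Its high and low arrays tended to run opposite to those of Cldn15, though not in strict order. Treated KO replicate 1 had the lowest Cldn4 signal of its group (8.37) with Cldn15 at the group median (7.74). Treated WT replicate 3 had the highest Cldn4 signal of the 29 arrays (10.37) and the lowest Cldn15 signal (6.67), and treated WT replicate 4 had the highest Cldn15 signal among treated arrays (8.50) with a Cldn4 signal of 8.44. Over all 29 arrays Pearson's r between both genes was -0.91, and it was -0.74 for the deviations from the group means, a description across arrays that share treatment. The treated arrays, which spread more, weigh most in the latter.

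**Figure D2:**
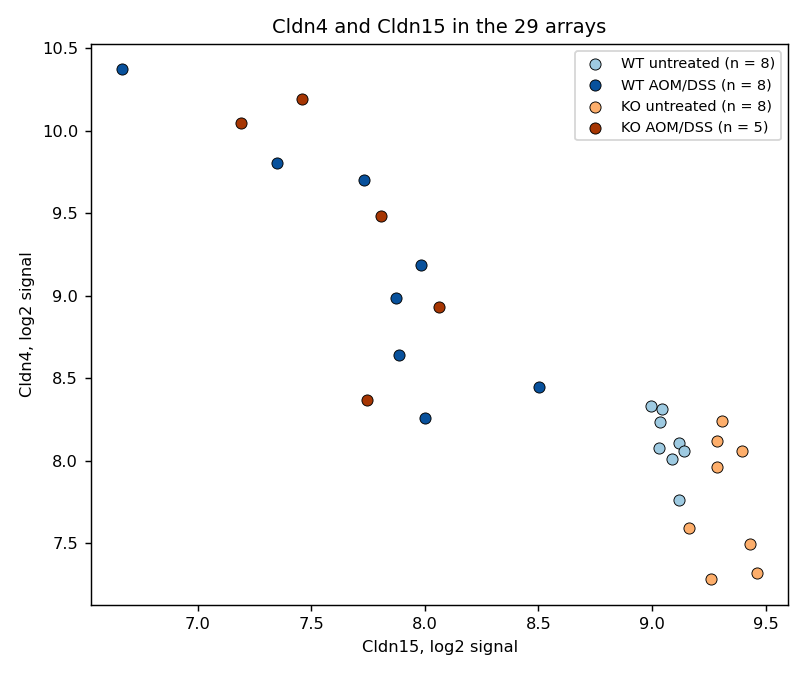
Cldn4 (vertical axis) against Cldn15 (horizontal axis), log2 signal, with 1 point for each of the 29 arrays coloured by group. Untreated arrays lie at lower right, and treated arrays of both genotypes run from there to the upper left, ending at a treated WT array with Cldn4 at 10.37 and Cldn15 at 6.67.

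Cldn1, the claudin that seals the epidermis, was low in untreated colons, at 5.38 to 6.16 (median 5.75) in WT and 5.47 to 5.91 (median 5.60) in KO. After AOM/DSS the 8 WT arrays ranged from 5.72 to 7.75 with a median of 6.60. 6 of these 8 exceeded every untreated WT array, and Cldn1 was 1.99-fold higher (log2 fold change 0.99 ± 0.24 SE, limma adjusted p = 0.00519). The 5 treated KO arrays were closely grouped at 6.71, 6.70, 6.34, 6.53 and 6.59, above all untreated KO arrays. Cldn1 was 1.94-fold higher there (log2 fold change 0.95 ± 0.09 SE, limma adjusted p = 2.6e-06).

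Squamous epithelium markers moved with Cldn1, unevenly between mice. Of the 16 measured squamous genes, 7 were higher and 0 lower in treated WT, and 8 higher and 1 lower in treated KO colons. The mean log2 signal of the list ran from 4.28 to 6.66 in treated WT, from 4.64 to 5.88 in treated KO and from 4.05 to 4.22 in untreated KO arrays. Untreated WT arrays held at 3.98 to 4.22 except replicates 5 and 6 (5.97 and 5.07). Both treated WT arrays with the highest Cldn1 (7.75 and 7.67) also had the highest squamous means (6.59 and 6.66). The arrays with lower squamous means were mixed. Treated WT replicate 4, with the lowest mean of its group (4.28), had a Cldn1 signal of 6.63, whereas replicates 3 and 8, at 4.80 and 5.08, had Cldn1 at 5.72 and 6.08, inside the untreated WT range. Treated KO replicates 2 and 4 had the lowest means of their group, 4.64 and 4.65, which were still above every untreated KO array, with Cldn1 at 6.70 and 6.53. Untreated WT replicate 5, with a squamous mean of 5.97, had the highest untreated Cldn1 signal (6.16). With the squamous score as a covariate, the Cldn1 log2 fold change was 0.45 in WT (adjusted p = 0.168) and 1.03 in KO (adjusted p = 0.00449).

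**Figure D3:**
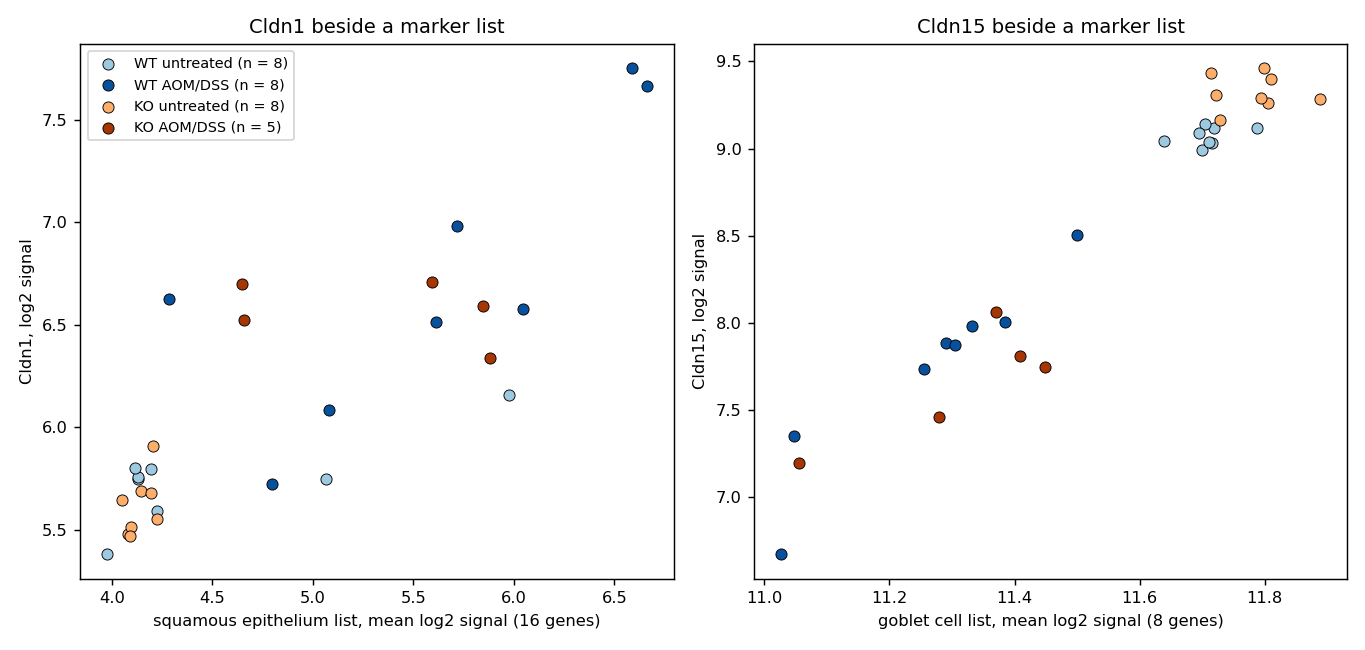
Left, Cldn1 log2 signal (vertical axis) against the mean log2 signal of 16 squamous epithelium genes (horizontal axis). Right, Cldn15 log2 signal against the mean of 8 goblet cell genes. Each point is 1 of the 29 arrays, coloured by group. Treated WT replicate 4 has Cldn1 at 6.63 with a squamous mean of 4.28, replicate 3 has Cldn1 at 5.72 with a mean of 4.80, and Cldn15 falls together with the goblet cell list among treated arrays.

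Cldn3, a sealing claudin and one of the brighter probe sets of the array, fell modestly. It went from 11.11 to 11.42 (median 11.30) in untreated WT to 10.80 to 11.16 (median 11.03) in treated WT colons, 1.21-fold lower (log2 fold change -0.28 ± 0.06 SE, limma adjusted p = 0.00318). 6 of 8 treated WT arrays were below every untreated one. In KO colons the untreated arrays spanned 11.06 to 11.40, and the treated arrays read 10.91, 10.97, 10.86, 10.99 and 10.83. These did not overlap, and Cldn3 was 1.26-fold lower (log2 fold change -0.33 ± 0.06 SE, limma adjusted p = 0.00117). With the squamous score as a covariate the KO call was lost (-0.20, adjusted p = 0.372).

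Cldn23, a claudin expressed in the surface epithelium of the colon, fell in both genotypes. Untreated WT arrays ranged from 7.14 to 7.69 (median 7.42) and treated WT arrays from 6.44 to 7.24 (median 6.83). It was 1.49-fold lower, with 7 of 8 treated arrays below every untreated one (log2 fold change -0.58 ± 0.11 SE, limma adjusted p = 0.000791). In KO colons the untreated range of 7.13 to 7.74 gave way to treated values of 6.71, 6.72, 6.73, 6.68 and 6.68, an SD of only 0.02. Cldn23 was 1.64-fold lower there (log2 fold change -0.71 ± 0.09 SE, limma adjusted p = 4.22e-05).

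Cldn7, a claudin found along the whole lateral membrane of colonic epithelial cells, showed no called difference. Its treated arrays ranged from 9.46 to 9.73 in WT and from 9.57 to 9.70 in KO, and its untreated arrays from 9.56 to 9.81 and from 9.61 to 9.79. The log2 fold change was -0.06 in WT (95% interval -0.18 to 0.05, limma adjusted p = 0.440) and -0.08 in KO (95% interval -0.19 to 0.04, adjusted p = 0.324). Both intervals leave room for a fall of at most 0.19 on the log2 scale.

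Cldn8 is a sealing claudin of the distal colon and of the sodium-reabsorbing kidney tubule. By log2 fold change it parted the genotypes most of the 10 genes (limma adjusted p = 0.631 untreated and 0.271 treated). Untreated WT arrays ranged from 9.57 to 10.39 (median 9.86) and treated WT arrays from 8.66 to 9.94 (median 9.50), and it was 1.40-fold lower after treatment (log2 fold change -0.49 ± 0.17 SE, limma adjusted p = 0.0472). In KO colons the direction was opposite. Untreated KO arrays ranged from 8.70 to 9.97 (median 9.56), and the 5 treated KO arrays read 10.02, 10.21, 9.88, 10.24 and 10.01, of which 4 exceeded every untreated KO array. Cldn8 was 1.52-fold higher (log2 fold change 0.60 ± 0.18 SE, limma adjusted p = 0.0205).

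The test of the difference itself did not pass: the Cldn8 responses differed by 1.09 ± 0.26 SE on the log2 scale (95% interval 0.55 to 1.62), with a limma adjusted p of 0.106. In treated colons 4 of 5 KO arrays lay above every WT array, and Cldn8 was 1.61-fold higher in KO (log2 fold change 0.69 ± 0.20 SE, limma adjusted p = 0.271). By the methods' t-test on probe sets past a 1.5-fold difference this was called (adjusted p = 0.0302). In untreated colons it was 1.32-fold lower in KO (log2 fold change -0.40 ± 0.16 SE, adjusted p = 0.631). The WT call was marginal and was lost without any 1 of 10 of the 16 arrays (adjusted p from 0.0215 to 0.0895 over all 16). The KO call was lost without treated replicate 2 or 4 (adjusted p up to 0.0526), both calls were lost with the squamous score as a covariate (WT -0.43, adjusted p = 0.200, and KO 0.94, adjusted p = 0.126), and without treated WT replicate 8 the difference of responses was called (adjusted p = 0.0401).

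Of 22170 genes with a probe set of their own, the one whose signal was most like that of Cldn8 over the 29 arrays was Arntl (Pearson's r = 0.80), which encodes the core circadian clock factor BMAL1. Tprn and Gprc5a followed (r = 0.77 each). Arntl ranged from 7.57 to 7.88 in treated WT and from 8.24 to 8.82 in treated KO arrays, with no overlap. Its untreated arrays ranged more widely, from 8.14 to 9.29 in WT and from 7.32 to 8.66 in KO. The genotype difference in treated colons was called for Arntl (log2 fold change 0.77, limma adjusted p = 0.00272), as was its interaction with treatment (1.30, adjusted p = 0.0143). The deviations of Cldn8 and Arntl from their group means correlated at r = 0.74 over the 29 arrays, and the part of Arntl in the Cldn8 values was not tested. The time of day at which colons were collected is not given in the sources used here.

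Occludin fell, and each treated array lay below every untreated array of its genotype. Ocln lay between 10.03 and 10.20 (median 10.08) in untreated WT and between 9.33 and 9.71 (median 9.65) in treated WT colons. The groups did not overlap, and the signal was 1.40-fold lower (log2 fold change -0.48 ± 0.06 SE, limma adjusted p = 1.07e-05). In KO colons untreated arrays ranged from 9.87 to 10.14, and the treated arrays read 9.46, 9.43, 9.22, 9.40 and 9.63. Ocln was lower there too, again without overlap (log2 fold change -0.59 ± 0.08 SE, limma adjusted p = 4.77e-05). Tjp1 (ZO-1), the scaffold beneath the strands, stayed close to its untreated level in both genotypes. Its group means were 9.81 ± 0.10 (SD, n = 8) untreated and 9.92 ± 0.07 (SD, n = 8) treated in WT, and 9.73 ± 0.04 (SD, n = 8) and 9.78 ± 0.14 (SD, n = 5) in KO, with log2 fold changes of 0.11 (95% interval -0.01 to 0.22, adjusted p = 0.163) and 0.05 (95% interval -0.09 to 0.18, adjusted p = 0.661).

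**Figure D4:**
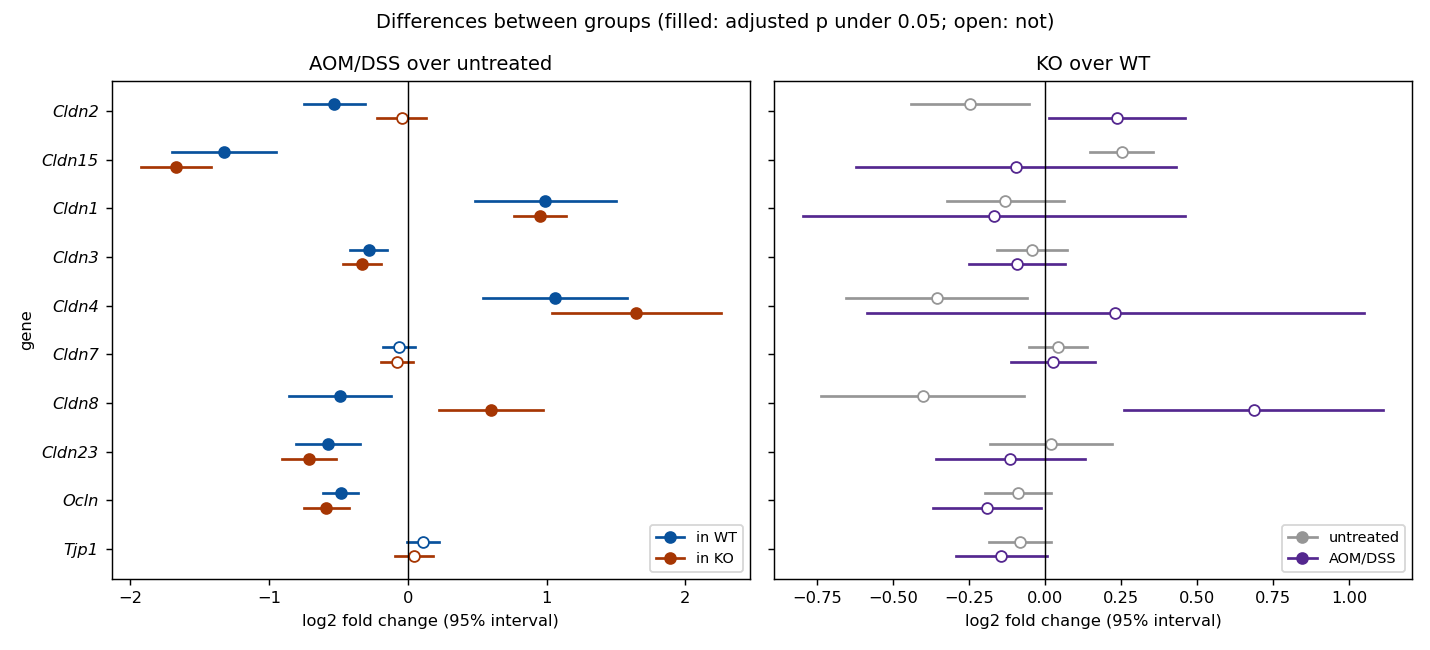
Log2 fold changes (horizontal axis, with 95% intervals) of the 10 genes. Left, AOM/DSS over untreated in WT and in KO colons. Right, KO over WT in untreated and in treated colons. Filled points passed an adjusted p of 0.05 by limma. Cldn15 is the lowest point in both genotypes (-1.32 and -1.67), Cldn8 lies on opposite sides of 0, and no KO over WT point is filled.

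Between genotypes, none of the 10 genes was called in untreated colons, where 0.0218% of all probe sets were (0.0121% higher in KO and 0.00967% lower), or in treated colons, where 0.167% were (0.0339% higher and 0.133% lower). In treated colons the genotypes overlapped for each of the 10 genes, and 0.646% of all probe sets did not overlap. By limma without adjustment, 4 genes had a p under 0.05 in untreated colons (Cldn2, Cldn4, Cldn8 and Cldn15), against 6.98% of all probe sets, and 3 in treated colons (Cldn2, Cldn8 and Ocln), against 9.69%. Cldn2 and Cldn8 changed sides between the comparisons. In untreated colons Cldn2 was lower in KO by limma (log2 fold change -0.25, adjusted p = 0.597), and in treated colons it was higher (0.24, adjusted p = 0.483). Untreated Cldn4 differed by -0.36 (adjusted p = 0.633), and treated Ocln by -0.19, with all 5 KO arrays below the WT median (adjusted p = 0.476). Among the other genes in treated colons, the 95% interval of the difference reached from -0.80 to 0.46 for Cldn1. For Cldn4 it reached from -0.59 to 1.05. Differences within these intervals were not excluded. The interaction of genotype and treatment called 0 of the 10 genes and 0.148% of all probe sets (0.0460% higher and 0.102% lower), with an unadjusted p under 0.05 for Cldn2 and Cldn8, against 8.08% of all probe sets.

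Cell type markers moved along with the junction genes. Of 12 general epithelial markers, 4 were lower and 0 higher in each genotype, and the mean log2 signal of the list ran from 10.71 to 10.84 in untreated and from 10.32 to 10.61 in treated arrays. The fall was concentrated in transcription factors of the intestinal lineage. Cdx2 fell by 2.45 on the log2 scale in WT and by 2.11 in KO, whereas Epcam had log2 fold changes of 0.02 and -0.02. Without Cdx1, Cdx2 and Hnf4a, the mean of the other 9 markers overlapped between groups, at 11.14 to 11.26 in untreated and 11.07 to 11.24 in treated WT arrays. With the mean of all 12 markers as a covariate, none of the 10 genes was called in treated against untreated colons of either genotype, although some log2 fold changes grew and their SE widened. In WT that of Cldn1 was 1.60 ± 0.51 SE, Cldn2 -0.77, Cldn23 -0.66 and Ocln -0.41, whereas Cldn15 came to -0.18 and Cldn3 to 0.0022. In KO that of Cldn4 was 2.65 ± 0.95 SE, Cldn8 1.81, Cldn15 -1.25, Cldn1 1.14 and Cldn23 -0.63, whereas Ocln came to -0.21 and Cldn3 to 0.0078. With the mean of the other 9, an alternative chosen after seeing the data, the 10 genes gave 2 higher and 5 lower calls in WT, where Cldn8 was lost (adjusted p = 0.174), and the same 3 higher and 4 lower calls in KO.

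Other cell types shifted too. Of 13 measured absorptive colonocyte markers 10 were lower and 0 higher in each genotype. Of 8 goblet cell markers 7 were lower in WT and 6 in KO, and 1 was higher in each. All 11 smooth muscle markers were lower and all 12 neutrophil markers higher in both genotypes. Of 10 crypt base and cycling cell markers, 3 were higher in WT and 7 in KO, and 0 were lower. Of 6 distal colon Hox genes, 4 were higher in WT and 3 in KO, and 0 were lower. Over all probe sets 12.5% and 12.6% were higher. The mean of the Hox list correlated over the 29 arrays with Cldn4 (r = 0.81) and Cldn15 (r = -0.82). For deviations from the group means r was 0.51 and -0.33, and it was 0.65 for Ocln. Within groups, the deviations of Cldn15 ran with those of the goblet list (r = 0.84) and the colonocyte list (r = 0.73), and those of Cldn4 with the crypt base and cycling list (r = 0.77) and against the goblet list (r = -0.72), each over 29 arrays. Treated arrays spread more and weigh most in these values. The SD of Cldn15 was 0.05 in untreated and 0.54 in treated WT colons, and 0.10 and 0.33 in KO colons. Cldn15, Cldn3 and Cldn8 deviated with the general epithelial list (r = 0.72, 0.68 and 0.62). The part of these cell types, or of position along the colon, in the claudin changes was not tested.

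The genes most like each of the others, by Pearson's r over the 29 arrays, were as follows. Cldn15 ran with 1810065E05Rik, Dpep1 (a membrane dipeptidase) and Slc12a8, at r = 0.98 each, and Dpep1 fell by 2.61 on the log2 scale in WT and by 3.00 in KO. Cldn4 ran with Tcf3, Krt7 (a simple-epithelium keratin) and Xrn2, at r = 0.94 each. Krt7 means rose from 7.36 to 7.97 in WT and from 7.34 to 7.97 in KO. Cldn1 ran with Ecm1, Sox15 and Zfp750 (r = 0.91, 0.90 and 0.88), of which Zfp750 drives differentiation of the epidermis. Ocln ran with Insr, the insulin receptor, and with Mettl7a1 and Pheta1 (r = 0.95 each). Cldn3 ran with Sphk2, Clybl and Cyp4f13 (r = 0.93, 0.91 and 0.91), and Cldn23 with Inafm2, Atp5l and Immp1l (r = 0.92, 0.91 and 0.91). Likeness was weaker for Tjp1 (Sptan1, Dsp and Rictor, r = 0.78, 0.77 and 0.76), Cldn2 (Suds3, Ufsp1 and Hyal3, r = 0.80, 0.79 and 0.78) and Cldn7 (Actrt3, Nectin2 and Cldn22, r = 0.70, 0.70 and 0.69). Actrt3 and Cldn22 were dim, with group means of 3.80 to 4.15 and of 3.69 to 3.92, below every array median. Dsp, which links desmosomes to keratin, is thus a junction gene whose pattern was near that of Tjp1.

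Among the 10 genes, Ocln and Cldn3 ran most closely in the same direction (r = 0.86 over 29 arrays), followed by Ocln with Cldn23, Ocln with Cldn15 and Cldn3 with Cldn15 (r = 0.82 each). These likenesses came mainly with treatment: for the deviations from the group means r was 0.38, 0.18, -0.01 and 0.31. Ocln and Tjp1 showed the reverse, with r = -0.09 over all arrays and 0.61 within groups.

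Genes of the wider junction apparatus were measured beside them. Of 17 other claudins measured, 0 were called by limma in treated against untreated colons of either genotype, and an unadjusted p under 0.05 was reached by 4 in WT (Cldn14, Cldn20, Cldn34a and Cldnd1, all lower) and by 1 in KO (Cldn5, higher), against 38.2% and 35.8% of all probe sets. 15 of the 17 had group means under 6 on the log2 scale. The other two were Cldn12, with group means of 7.02 to 7.15, and Cldnd1, a claudin-domain protein, with 9.24 to 9.37. The largest log2 fold change among the 17 was that of Cldn6, a claudin of embryonic epithelium, at 0.54 in WT (adjusted p = 0.142) and 0.57 in KO (adjusted p = 0.152). The claudins of this list were named after their values were seen.

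Of 31 other tight junction genes, 3 were higher and 9 lower in treated WT colons, and 6 were higher and 9 lower in treated KO colons. Prkcz, the atypical protein kinase C of the apical polarity complex, fell by 0.78 in WT and by 1.09 in KO on the log2 scale (limma adjusted p = 1.84e-06 and 1.9e-08). Mylk, the myosin light chain kinase that contracts the perijunctional actin ring and is also abundant in smooth muscle, fell by 0.91 and by 1.15, in samples where all 11 smooth muscle markers were lower. Arhgef2, a protein held at tight junctions, rose by 0.52 and by 0.57. Esam, an adhesion molecule of endothelial junctions, rose by 0.54 in WT and by 0.86 in KO, while 6 and 8 of 8 endothelial markers were higher. Ect2, a factor of cell division, rose by 0.75 in KO and had a log2 fold change of 0.32 in WT (adjusted p = 0.148).

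Of 17 adherens junction and desmosome genes, 2 were higher and 3 lower in WT, and 1 was higher and 3 lower in KO. These shares were near those of all probe sets, of which 26.7% were called in WT and 26.1% in KO. The called genes of largest size were nectins, which are immunoglobulin-like adhesion molecules of adherens junctions. Nectin4 rose by 0.79 in WT and by 0.75 in KO, whereas Nectin3 fell by 0.36 and by 0.50 and Nectin2 fell by 0.35 and by 0.28. Nectin1 fell by 0.44 in KO. Cdh1, which encodes E-cadherin, fell by only 0.13 in WT and had a log2 fold change of 0.0018 in KO (not called). The median log2 fold change was -0.11 and -0.03 for the other claudins, -0.04 and -0.07 for the other tight junction genes and 0.02 and 0.00 for the adherens junction and desmosome genes, in WT and KO. None of these genes was called between genotypes, treated or untreated.

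**Figure D5:**
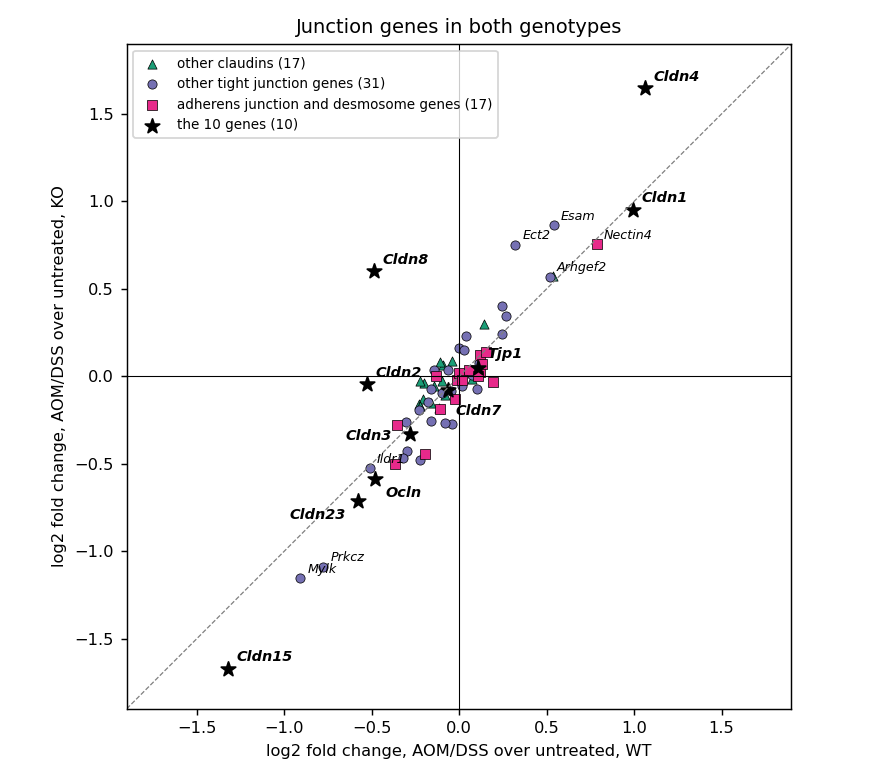
Log2 fold change after AOM/DSS in KO (vertical axis) against that in WT (horizontal axis). Stars are the 10 genes, triangles 17 other claudins, circles 31 other tight junction genes and squares 17 adherens junction and desmosome genes. The dashed line marks equal change. Of the 10 genes, Cldn4, Cldn1 and Cldn15 lie farthest from the origin. Most other junction genes lie within 0.5 of it, but Mylk and Prkcz also lie far out, on the side of lower signal. Cldn8 is apart from the line at -0.49 in WT and 0.60 in KO.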

How the data were processed

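The authors computed the deposited log2 values with RMA (background correction, normalization between arrays and 1 log2 expression measure per probe set, with the Bioconductor package oligo per the study's methods, version not given in the sources used here). These log2 values were used as deposited for 29 arrays and 41345 probe sets, of which 23521 carry 1 gene in the platform annotation. No depth exists for arrays, so the number of mice (8, 8, 8 and 5) limits the precision.

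Groups came from the labels, which call the samples biological replicates. Comparisons of 2 groups, and the interaction over all 4, were fitted over all probe sets in limma (version 3.58.1, under R 4.3.3) by lmFit followed by eBayes. Tests were two-sided, p-values were adjusted over the whole array after Benjamini and Hochberg, and a call needed an adjusted p under 0.05. The fits were tested on simulated data with known changes. The simulated noise of a probe set had the same SD in all 4 groups, pooled from the data. Some genes spread more after treatment, such as Cldn15 in WT colons (SD 0.05 untreated and 0.54 treated). For such genes the counts between inflamed genotypes and in the interaction can be too high. Of 50 probe sets changed 1.5-fold, 28 were recovered between inflamed genotypes, 35 between untreated genotypes and 21 in the interaction. In treated against untreated colons 36 were recovered in WT and 30 in KO. Of 50 changed 2-fold, 46, 48 and 40 were recovered in the first 3 tests. Smaller differences between genotypes could thus be missed. Intervals are 95%. Correlations are descriptions and carry no p. The 10 genes and all gene lists were chosen with earlier results of these data known. Named beside them are, in each comparison, up to 4 called genes per junction list with the smallest p, and the 3 genes of highest Pearson's r with each of the 10. Other claudins and marker genes were named after their values were seen.

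Alternatives were median centring, quantile normalization, a filter on dim probe sets, a variance trend, all groups in 1 fit, the methods' t-test with a fold filter of 1.5, the replicate number as a block, the mean over a gene's probe sets (identical here), covariates for epithelial and squamous scores, and leaving out each array in turn. Covariates without the intestinal transcription factors, and leaving out both untreated WT arrays with squamous markers, were added after seeing the data. Promoter windows are from RefSeq (GRCm38.p6).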

Additional observations from a re-analysis of the deposited data

Results flagged for a closer look

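Among 40 combinations of gene and group, 1 array stood outside its group by Dixon's criterion, which flags about 1 in 20 groups by chance. It was Ocln in treated WT replicate 8, at a log2 signal of 9.33, where the next lowest of the 8 arrays was 9.57 and the highest 9.71. The same array had the highest Cldn8 signal of its group (9.94) and the lowest Cldn4 signal (8.26). Without it the Ocln log2 fold change in WT was -0.44 (limma adjusted p = 5.77e-06).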

How the results depend on the processing

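Of the 15 calls made in treated against untreated colons, all were lost with the 12-marker epithelial score as a covariate (0 higher and 0 lower in each genotype), a score whose treated and untreated arrays did not overlap. Some log2 fold changes grew (Cldn1 1.60 in WT, Cldn4 2.65 and Cldn8 1.81 in KO), and signs turned in WT for Cldn3 (0.0022), Cldn4 (-0.17), Cldn7 (0.011) and Cldn8 (0.38), and in KO for Cldn3 (0.0078) and Cldn7 (0.030), while in inflamed colons and in the interaction it called 1 gene higher, Cldn8 (0.71, adjusted p = 0.0376, and 1.10, adjusted p = 0.0159). With the squamous score as a covariate 1 gene was higher in WT (Cldn4) and 1 in KO (Cldn1), the calls of Cldn8 in both genotypes and of Cldn3 in KO (-0.20, adjusted p = 0.372) were lost too, and signs turned for Cldn2 (0.13) and Tjp1 (-0.0082) in KO and Cldn23 between untreated genotypes (-0.012). The methods' t-test, which requires a 1.5-fold difference, called 1 gene lower in WT (Cldn15) and 1 higher in inflamed KO colons (Cldn8, adjusted p = 0.0302). It kept Cldn1 and Cldn4 as higher in WT. Cldn2, Cldn3, Cldn8, Cldn23 and Ocln in WT, and Cldn3 in KO, fell short of the fold filter. A variance trend called 1 gene higher in untreated KO (Cldn15). Median centring turned the Cldn7 interaction to 0.0030. Leaving out both untreated WT arrays with squamous markers, chosen after seeing the data, turned Cldn23 between untreated genotypes to -0.016 and lost Cldn8 in WT (-0.49, adjusted p = 0.0952). Apart from the calls removed by that fold filter, the cause of these changes was not tested.

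The replicate number as a block lost Cldn8 in WT (-0.49, adjusted p = 0.0545), called 1 gene in the interaction (Cldn8, 1.08, adjusted p = 0.0317) and changed no other call of the 10 genes. Same-numbered arrays share only a number: their deviations correlated above 0.1 in 0 of 8 pairs in WT, 0 of 5 in KO, 0 of 8 between untreated and 3 of 5 between inflamed genotypes, and 2 of 16, 1 of 10, 0 of 16 and 4 of 10 arrays correlated best with their own number.

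Leaving out 1 array at a time gave 5 to 6 lower calls in WT, 2 to 3 higher in KO and 0 to 1 higher in the interaction, all through Cldn8. Signs turned only for values not called: Cldn1 interaction -0.18 to 0.11, Cldn7 interaction -0.037 to 0.00029, Cldn15 in inflamed colons -0.25 to 0.019, Cldn23 in untreated colons -0.026 to 0.063, and in KO Cldn2 -0.078 to 0.017 and Tjp1 -0.00075 to 0.079.

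Over all probe sets, 11053 were called in WT, 1933 with the epithelial score and 3447 by the methods' t-test. In KO 10805 were called, with 60 (epithelial score), 2628 (squamous score), 7015 (block) and 4286 (t-test). Between untreated genotypes 9 were called, with 24 (variance trend), 16 (all groups), 5 (block), 27 (t-test) and 6 (squamous arrays out). Between inflamed genotypes 69 were called, with 403 (all groups), 11 (block) and 315 (t-test). The interaction called 61, and 32 with the squamous arrays out. Single arrays moved the genotype counts in both directions. Between inflamed genotypes they ran from 43 (without treated KO replicate 4) to 92 (without treated WT replicate 5). Between untreated genotypes they ran from 7 (without untreated WT replicate 1, among others) to 14 (without untreated KO replicate 8). In the interaction they ran from 41 (without treated KO replicate 3) to 131 (without treated KO replicate 5).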
